A study of Mus musculus with 7 samples.

Results

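Circulating myeloid cells of mice carrying an LLC tumor were set against those of naive mice. LLC is the Lewis lung carcinoma, a transplantable mouse lung tumor line, and the tumor stage of the labels was day 14. Both libraries came from C57/Bl6 blood enriched for CD11b, an integrin chain of neutrophils, monocytes and macrophages, and carried RNA and surface antibody tags of the same cells. Cells were taken by the library name in the authors' metadata. Those with counts came to 354 in tumor-bearing blood and 814 in naive blood, which is 1168 of the 4290 counted cells of the series. All cells of each library were compared, and then the cells of the authors' clusters 0, 1, 2, 4 and 6 matched by cluster. These 5 clusters held 329 cells (92.9%) of tumor-bearing blood and 765 cells (94.0%) of naive blood.

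Monocytes leave the bone marrow as classical cells, which carry Ly6C and the chemokine receptor CCR2, and some turn in the circulation into non-classical cells that patrol vessel walls. Tumors and inflammation are known to alter the numbers and the transcripts of these cells before they enter a tissue. Transcripts that classical monocytes carry were read in most cells of both libraries, though cells of the neutrophil-like cluster 12 described below also held Ccr2. Ccr2 had a unique molecular identifier (UMI, a counted molecule) in 91.2% of tumor-bearing and 92.9% of naive blood cells, and Ly6c2 in 92.4% and 95.8% of them. Itgam, which encodes CD11b, was read in 91.0% of tumor-bearing and 92.0% of naive blood cells.

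Each state was 1 library, and the labels did not say how many mice it held, so no difference below has a replicate check and none carries a p-value. The 5 clusters of a library share its mice and its handling and are not replicates. Totals were 4523693 UMIs in tumor-bearing blood and 9776945 in naive blood, with medians per cell of 12445 and 11733. Mitochondrial genes took a median of 3.25% of a cell's UMIs in tumor-bearing blood and 2.85% in naive blood. The neutrophil-like cluster 12 held 17 cells of tumor-bearing blood (4.80%, 2.82 to 7.58) and 11 of naive blood (1.35%, 0.676 to 2.41). Cluster 16 held 5 (1.41%, 0.460 to 3.27) and 35 (4.30%, 3.01 to 5.93). No cell barcode was shared by the 2 libraries. Levels are UMIs per 1000000 UMIs of a library or cluster (CPM), and intervals in parentheses are exact 95% intervals that cover counting error only.

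Genes counted as measured when both libraries held 30 UMIs or more in sum and one of them reached 20 CPM. The rule left 5300 genes, of which 86 were at least 1.5-fold higher in tumor-bearing blood (1.62%) and 40 were at least 1.5-fold lower (0.755%). Past 2-fold were 30 higher (0.566%) and 7 lower genes (0.132%). Inside the matched clusters, 5273 genes had at least 10 UMIs in each of the 5. There 161 genes (3.05%) were higher in all 5 clusters with a median at least 25% higher, and 116 (2.20%) were lower in all 5 with a median ratio at or past the inverse. Without the cell richest in each gene in each cluster, the balance turned to 96 higher and 249 lower genes. The lists overlapped in part: 49 of the 86 higher genes (57.0%) also stood among the 161, and 23 of the 40 lower genes (57.5%) among the 116. Detection was read after every cell was thinned to 5000 UMIs, which kept 343 tumor-bearing and 802 naive blood cells. Of 5081 genes detected in 5% to 95% of these cells, 51 (1.0%) were detected in at least 10 percentage points more cells of tumor-bearing blood, and 22 (0.433%) in at least 10 points fewer. These sets depended on depth: of the 51, 16 remained at 3000 UMIs and 30 at 8000 UMIs, and of the 22, 7 and 8 remained. All of these rules, by fold, by cluster and by detection, were met by 21 higher and 5 lower genes.

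Outside the extreme ratios, Amica1, Gcnt2, Cfb, Pla2g7, Chil3 and Fkbp5 were among the 12 genes with the largest median ratio across clusters in tumor-bearing blood. Amica1 (now Jaml), a leukocyte adhesion receptor of the junctional adhesion family, lies on chromosome 9 at 45079153 to 45108531 (GRCm38.p6, RefSeq, as for all gene positions here). It stood at 77.1 CPM in tumor-bearing blood and 31.5 CPM in naive blood, 2.45-fold higher (2.10 to 2.86). Its ratio was 2.84 in cluster 0, 3.94 in cluster 1, 1.13 in cluster 2, 4.38 in cluster 4 and 2.95 in cluster 6. Cluster 2 was thus the cluster in which it barely differed. Gcnt2, which branches blood-group I glycans, reached 85.8 CPM in tumor-bearing blood against 35.0 CPM in naive blood, with cluster ratios between 1.61 and 3.69. Cfb, the factor B protease of the alternative complement pathway, had 46.6 CPM in tumor-bearing and 24.8 CPM in naive blood, and it was at least 2.03-fold higher in every one of the 5 clusters.

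Pla2g7, the plasma hydrolase that inactivates platelet-activating factor, was the most abundant of these genes after Chil3. It lies on chromosome 17 at 43567994 to 43612202 and had 414.9 CPM in tumor-bearing blood against 210.1 CPM in naive blood, 1.98-fold higher (1.85 to 2.10). The level in tumor-bearing cells was higher in each cluster, from 446.5 against 289.6 CPM in cluster 4 to 400.2 against 124.2 CPM in cluster 6. Chil3, a secreted chitinase-like protein of mouse myeloid cells, had 4130 CPM in tumor-bearing and 1852 CPM in naive blood. Its 5 cluster ratios stayed between 1.63 and 2.34, a narrow range for so large a difference. Fkbp5, an HSP90 co-chaperone that is induced by glucocorticoids in many cell types, had 24.1 CPM in tumor-bearing and 8.80 CPM in naive blood, from 109 and 86 UMIs. Of 9 glucocorticoid-responsive genes measured, Fkbp5 was the only 1 at least 1.5-fold higher, against 1.62% of all measured genes, and 0 were lower. Their median log2 ratio was −0.07.

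Another 5 of the ranked higher genes were scarcer, between 23.9 and 55 CPM in tumor-bearing blood and between 12.9 and 24.4 CPM in naive blood. They were Dpep2, a membrane dipeptidase, Slc28a2, a nucleoside transporter, Mxd1, a MYC antagonist, Sh2d1b1, an adaptor of SLAM-family receptors, and B4galt6, which makes lactosylceramide. Their all-cell ratios ran from 1.85 to 2.25. Mxd1 and B4galt6 had the smallest single-cluster ratios, 1.18 and 1.08, both in cluster 1.

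**Figure D1:**
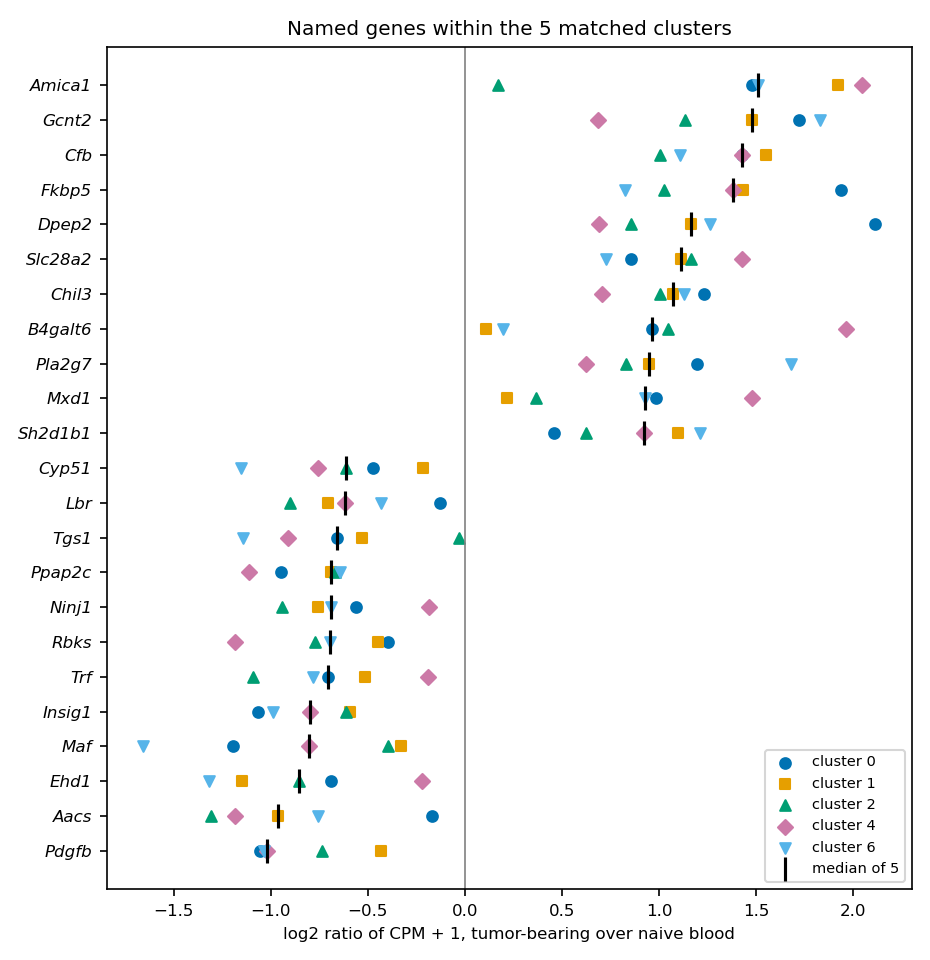
Log2 ratio of CPM + 1, tumor-bearing over naive blood, in each of the 5 matched clusters (coloured symbols) and their median (bar) for 11 of the highest and the 12 lowest genes named by the cluster ranking. Each gene keeps 1 side of 0 in all 5 clusters, while the spread among clusters is wide for Amica1 and B4galt6 and narrow for Chil3.

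The 12 lower genes of the same ranking had medians across clusters between 1.53-fold lower for Cyp51 and 2.03-fold lower for Pdgfb, a growth factor chain read at 12.2 CPM in tumor-bearing and 23 CPM in naive blood. Trf, the iron carrier transferrin, was the most abundant of these 12, on chromosome 9 at 103208876 to 103230286. It had 242.3 CPM in tumor-bearing blood and 393.3 CPM in naive blood, 1.62-fold lower (1.52 to 1.74), with 208.3 against 444.7 CPM in cluster 2 and 187.5 against 214.3 CPM in cluster 4. Ninj1, a protein that ruptures the plasma membrane of dying cells, stood at 106.1 CPM in tumor-bearing and 169.0 CPM in naive blood. Ehd1, an ATPase of endocytic recycling, was 1.63-fold lower (1.42 to 1.88) and the transcription factor gene Maf 1.78-fold lower (1.43 to 2.24).

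Aacs, which activates acetoacetate for lipid synthesis, had 13 CPM in tumor-bearing and 23.9 CPM in naive blood. Lbr, an inner nuclear membrane protein that also reduces sterols, was at 83.3 CPM in tumor-bearing and 112.0 CPM in naive blood. Rbks, ribokinase, was at 42.7 CPM in tumor-bearing and 64.1 CPM in naive blood. Insig1 and Cyp51 are described with the cholesterol genes. Ppap2c (now Plpp2), a lipid phosphate phosphatase, and Tgs1, which caps small nuclear RNAs, were 1.77-fold and 1.56-fold lower.

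Lyz2, the lysozyme of myeloid cells, is among the most abundant transcripts of these cells and was measured with the granule genes of neutrophils. It gave 12133 CPM in tumor-bearing blood and 17731 CPM in naive blood, 1.46-fold lower (1.45 to 1.48), which kept it short of 1.5-fold. The level was lower in all 5 clusters, by 1.5-fold at the median, and its cluster ratios spanned only 0.612 to 0.731. Lyz2 was also at 0.581 of the naive level in tumor-bearing spleen and at 0.802 in tumor-bearing bone marrow. Its list, of secondary and tertiary granule genes, lay mostly the other way: of 13 measured, 7 were at least 1.5-fold higher and 0 lower, against 1.62% and 0.755% of all measured genes, with a median log2 ratio of 0.82. Within clusters 4 of 10 were higher by the rule and 1, Lyz2, was lower, against 3.05% and 2.20% of all genes compared. Lcn2, the lipocalin of neutrophil granules, had the highest cluster median of the list and stood at 133.5 CPM in tumor-bearing and 14.2 CPM in naive blood, and cluster 12 held 36.4% and 10.8% of its UMIs.

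Detection separated genes read in more cells from genes read more often in few cells. Vcan, the matrix proteoglycan versican of classical monocytes, was found in 35.6% of thinned tumor-bearing cells (30.5 to 40.9) and in 11.6% of naive cells (9.46 to 14.0). Without thinning the shares were 49.4% and 21.7%. In cluster 0 it was found in 66.7% of tumor-bearing and 20.8% of naive cells, and in cluster 4 in 6.35% and 0.763%. Versican thus spread over more cells in each cluster, with cluster 0 far ahead.

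Pla2g7 was detected in 78.4% of thinned tumor-bearing cells (73.7 to 82.7) and 54.6% of naive cells (51.1 to 58.1). F10, which encodes coagulation factor X, was detected in 46.6% of tumor-bearing cells (41.3 to 52.1) and 30.4% of naive cells (27.3 to 33.7). Its thinned UMIs per positive cell were 1.61 and 1.41, and its summed level was 1.62-fold higher. Atp5k, a small subunit of the mitochondrial ATP synthase, was detected in 73.2% of tumor-bearing and 55.7% of naive cells after thinning, but in 92.1% and 84.6% without it.

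S100a8 and S100a9, the subunits of calprotectin, were detected in more cells and also concentrated in few. S100a9 was detected in 61.2% of thinned tumor-bearing cells (55.8 to 66.4) and 40.5% of naive cells (37.1 to 44.0), and S100a8 in 50.1% and 31.5%. Yet the 5 cells with the most S100a8 UMIs held 62.4% of all its UMIs in tumor-bearing blood and 40.2% in naive blood. Cluster 12 held 39.7% of the S100a8 UMIs of tumor-bearing blood and 18.3% of those of naive blood. Summed over the 5 matched clusters the level was 1005 CPM in tumor-bearing and 466.4 CPM in naive blood, 2.15-fold higher, against 3.01-fold over all cells. Both the S100a8 level of the 5 clusters and the share of cluster 12 were higher in tumor-bearing blood, and the part of free RNA in these shares was not tested.

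Fewer cells carried Trf in tumor-bearing blood, 52.8% after thinning (47.3 to 58.2) against 71.2% in naive blood (67.9 to 74.3). Gas7, an actin-binding protein, was detected in 14.6% of tumor-bearing cells (11 to 18.8) and 31.3% of naive cells (28.1 to 34.6). Cx3cr1, the fractalkine receptor that rises as monocytes become non-classical, was detected in 57.4% and 72.1% of them. The Cx3cr1 gap was widest in cluster 0, at 40.6% of tumor-bearing and 73.1% of naive cells, and cluster 6 had none, at 71.1% and 67.8%. Blvrb, a flavin and biliverdin reductase, was detected in 21.6% of tumor-bearing and 37.5% of naive cells, Ehd1 in 19.2% and 31.9%, and Neurl3, a ubiquitin ligase, in 33.8% and 46.3%. Blvrb, Cx3cr1 and Neurl3 did not reach 1.5-fold in summed UMIs, at 1.38-fold, 1.27-fold and 1.28-fold lower.

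A background share could be looked for in few cases. For Vcan the lowest of the 5 clusters was cluster 4, at the shares given above. The neutrophil-like cluster 12 carried Ccr2 in 16 of 17 tumor-bearing and 11 of 11 naive cells and Cx3cr1 in 10 of 17 and 8 of 11, at median depths of 4987 and 8791 UMIs. The matched clusters had medians of 12465 and 11720 UMIs. In the same unthinned cells of cluster 12, Vcan was read in 6 of 17 tumor-bearing and 2 of 11 naive cells. Pla2g7 was read in 16 of 17 and 9 of 11. Its level in cluster 12 was 630.1 CPM in tumor-bearing and 567.3 CPM in naive cells. The matched clusters had 410.1 and 206.4 CPM of Pla2g7. The part of free RNA in these values was not tested.

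**Figure D2:**
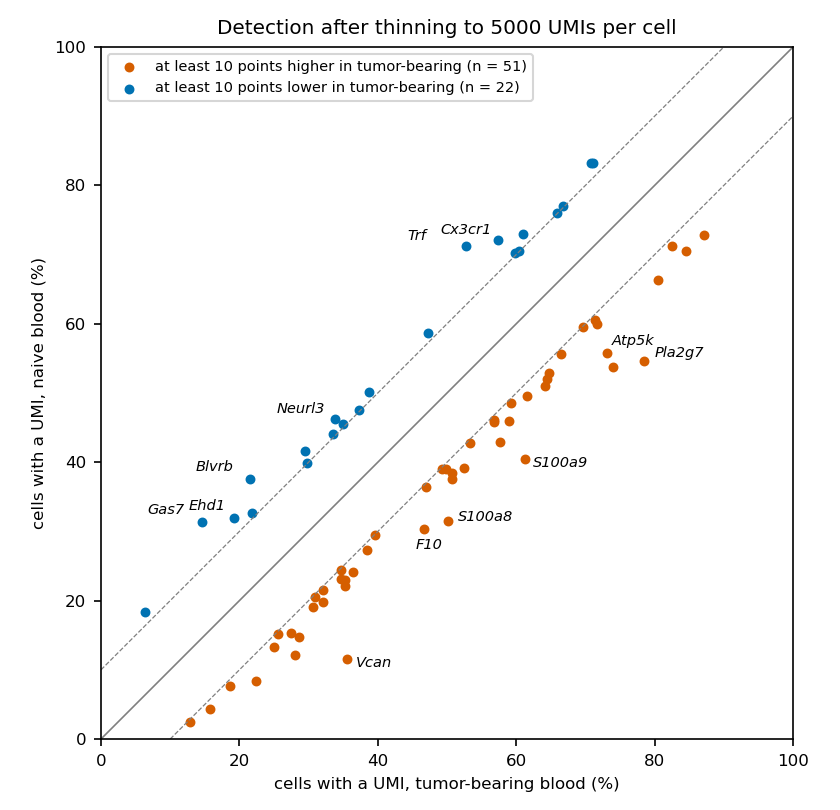
Share of cells with at least 1 UMI of a gene after thinning to 5000 UMIs per cell, tumor-bearing blood (x axis, 343 cells) against naive blood (y axis, 802 cells), for the 51 genes at least 10 percentage points higher (orange) and the 22 at least 10 points lower (blue). Dashed lines mark a difference of 10 points, and the farthest from the diagonal are Vcan and Pla2g7 on the higher side and Trf on the lower side. The unlabelled orange point beside Atp5k is Rpl37rt.

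Cells sense and make cholesterol through the SREBP pathway, in which Insig1 holds the transcription factor back and enzymes from Hmgcs1 to Cyp51 and Msmo1 build the sterol. Many of these transcripts were lower in tumor-bearing blood. Among the 13 genes measured for cholesterol synthesis and uptake, 5 were at least 1.5-fold lower and 0 higher, where 0.755% of all measured genes were lower. The median log2 ratio was −0.45, against 0.01 over all measured genes. Within clusters the median over 12 genes was −0.57, and 4 genes, Insig1, Cyp51 and Msmo1 among them, were lower in all 5 by the cluster rule, against 2.20% of all genes compared. The summed level of the list was 487.9 CPM in tumor-bearing blood and 683.4 CPM in naive blood.

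Insig1, on chromosome 5 at 28071412 to 28078662, had 18.6 CPM in tumor-bearing and 33.4 CPM in naive blood, 1.80-fold lower (1.41 to 2.32). Cyp51, the sterol 14-demethylase, had 33.6 and 53.1 CPM, 1.58-fold lower in tumor-bearing blood (1.32 to 1.91). The early enzymes Hmgcs1 and Idi1 and the squalene epoxidase Sqle were 1.58-fold, 1.95-fold and 2.09-fold lower over all cells but did not keep 1 direction. Idi1 had 18 CPM in tumor-bearing and 8.20 CPM in naive cells of cluster 0, and 44.8 against 136.0 CPM in cluster 4. The scarcest, Sqle, rested on 46 UMIs of tumor-bearing blood and 208 of naive blood.

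Promoter windows of the lower cholesterol genes show which SREBP-related letters they hold. The RefSeq windows (GRCm38.p6) run from 250 bases before to 50 bases after a gene's start, and 4 of the 5 genes at least 1.5-fold lower had one, Sqle having none in the table. The sterol element TCACNCCAC, searched on both strands, was found for 1 of these 4 genes and in 1.24% of all 32851 windows. The CCAAT box, the site of the SREBP partner NF-Y, was found for 4 of 4 genes and in 37.4% of all windows. Sets were counted by gene, with a hit in any window of the gene, and the whole table by window, so the shares are not of like units. Cholesterol genes short of 1.5-fold were not searched as a set, so these shares cannot set the lower genes apart from the rest of their list. Capitals mark both motifs, and a CCAAT box on the other strand reads ATTGG. The motifs do not overlap in these windows. The Hmgcs1 window (chr13:119690101-119690400, plus strand) holds 1 sterol element and 4 CCAAT boxes.
Hmgcs1: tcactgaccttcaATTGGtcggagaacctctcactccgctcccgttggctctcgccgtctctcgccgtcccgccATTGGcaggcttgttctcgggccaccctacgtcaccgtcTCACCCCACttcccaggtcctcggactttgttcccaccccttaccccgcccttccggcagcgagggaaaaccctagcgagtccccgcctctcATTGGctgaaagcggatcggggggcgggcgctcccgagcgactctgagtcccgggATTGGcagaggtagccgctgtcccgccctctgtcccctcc
Insig1 (chr5:28071162-28071461, plus strand) and Cyp51 (chr5:4104648-4104947, minus strand) hold 1 CCAAT box each, and Idi1 (chr13:8885356-8885655, plus strand) holds 2.
Insig1: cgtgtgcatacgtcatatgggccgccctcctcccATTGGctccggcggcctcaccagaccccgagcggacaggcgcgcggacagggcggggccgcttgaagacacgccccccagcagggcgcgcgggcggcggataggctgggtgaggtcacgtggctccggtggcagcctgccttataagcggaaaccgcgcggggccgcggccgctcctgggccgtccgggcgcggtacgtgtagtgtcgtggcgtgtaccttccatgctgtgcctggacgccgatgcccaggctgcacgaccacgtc
Cyp51: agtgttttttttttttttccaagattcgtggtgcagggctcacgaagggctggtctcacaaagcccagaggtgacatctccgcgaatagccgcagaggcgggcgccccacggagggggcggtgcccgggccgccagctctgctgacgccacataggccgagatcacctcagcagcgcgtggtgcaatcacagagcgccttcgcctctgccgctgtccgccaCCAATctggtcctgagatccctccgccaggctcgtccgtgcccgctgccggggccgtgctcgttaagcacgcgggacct
Idi1: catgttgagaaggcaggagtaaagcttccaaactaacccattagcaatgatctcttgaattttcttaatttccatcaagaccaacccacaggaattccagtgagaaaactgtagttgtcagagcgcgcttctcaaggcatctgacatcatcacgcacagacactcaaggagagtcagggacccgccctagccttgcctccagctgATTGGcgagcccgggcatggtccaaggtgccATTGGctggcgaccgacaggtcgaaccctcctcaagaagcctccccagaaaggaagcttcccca

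Genes that carry, digest and export lipid were split. Lpl, Apoe and Apoc1 were lower in all 5 clusters. Apoe, the apolipoprotein secreted by macrophages, had 1498 CPM in tumor-bearing and 2924 CPM in naive blood, and its cluster ratios ran from 0.332 in cluster 0 to 0.818 in cluster 4. Npc1, which moves cholesterol out of lysosomes, and Scarb1, the HDL receptor, were higher in all 5. Scarb1 was at 146.3 CPM in tumor-bearing and 110.1 CPM in naive blood, and detected in 52.5% and 39.2% of thinned cells. Over 15 measured genes of this list 1 was at least 1.5-fold higher and 3 were lower, against 1.62% and 0.755% of all measured genes.

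Genes of the acute phase and of STAT3 signalling, the pathway through which IL-6 and G-CSF act on myeloid cells, were mostly higher or even. Of 18 measured, 8 were at least 1.5-fold higher (1.62% over all measured genes) and 0 lower, with a median log2 ratio of 0.46. Within clusters 6 of 17 were higher by the rule, against 3.05% of all genes compared, and 8 of 17 had a higher level in all 5 whatever the size. The 6 were the secreted proteins Lcn2 and Lrg1, the interferon-inducible Ifitm1, and Socs3, Pim1 and Junb. Neutrophil markers, 9 of 10 of them at least 1.5-fold higher, moved with this list, and their part in it was not tested beyond the cluster values. Socs3, the feedback inhibitor of STAT3, had 95.3 CPM in tumor-bearing and 50.9 CPM in naive blood, 1.87-fold higher (1.64 to 2.13), and was detected in 30.6% and 19.1% of thinned cells. Its ratio was 3.23 in cluster 2 and between 1.39 and 1.74 in the other clusters. Pim1, a STAT-induced kinase, was 1.51-fold higher (1.34 to 1.71) and Junb, an AP-1 subunit, 1.32-fold higher (1.26 to 1.39).

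Stat3 itself had 169.3 CPM in tumor-bearing and 151.2 CPM in naive blood, 1.12-fold higher (1.03 to 1.22). Il6ra, Ifitm3 and Ifitm6 of the same list were lower in all 5 clusters by less than that rule asks at the median. The palindrome TTCNNNGAA, which STAT factors bind, was found for 1 of the 6 genes Socs3, Pim1, Junb, Lrg1, Lcn2 and Ifitm1. It was in 8.3% of all windows, counted by window and not by gene. The gene is Socs3 (chr11:117969317-117969616, minus strand). Its window is shown with the palindrome in capitals, because Socs3 is the STAT3 feedback gene of the list.
Socs3: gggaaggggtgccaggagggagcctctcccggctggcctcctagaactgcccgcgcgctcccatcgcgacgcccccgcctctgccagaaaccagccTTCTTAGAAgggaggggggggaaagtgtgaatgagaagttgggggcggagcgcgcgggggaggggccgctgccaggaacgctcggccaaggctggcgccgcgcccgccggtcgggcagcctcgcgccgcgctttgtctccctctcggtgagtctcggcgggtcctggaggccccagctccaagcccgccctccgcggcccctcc

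Monocyte subset genes moved in a mixed fashion. Of 15 non-classical monocyte genes compared in clusters, 7 were higher in all 5, 4 of them by the rule, and 0 were lower in all 5. Over all 5273 genes 460 were higher in all 5, and 3.05% were higher by the rule. Treml4, a receptor that marks non-classical monocytes, had 146.8 CPM in tumor-bearing and 114.9 CPM in naive blood, with ratios of 1.60, 1.34, 1.60, 1.07 and 1.76 in clusters 0, 1, 2, 4 and 6. Ace, which makes angiotensin II, had 245.4 and 195.6 CPM, and Cd300ld 67.0 and 48.3 CPM. Pglyrp1, a peptidoglycan-binding granule protein, was the 1 of these 4 past 1.5-fold over all cells, at 187.0 CPM in tumor-bearing and 110.4 CPM in naive blood. Cx3cr1, on the same list, had the lower detection given above, and Spn and Nr4a1 differed by 1.03-fold and 1.04-fold.

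Classical monocyte genes, 20 measured, had a median log2 ratio of −0.04. Over all cells 1 of the 20 was at least 1.5-fold higher and 0 lower, against 1.62% and 0.755% of all measured genes. Within clusters Vcan, 1 of 20 compared, was higher by the rule, against 3.05% of all genes compared. Fn1, fibronectin, and Ms4a8a, 2 of 20, were lower, against 2.20%. Fn1 had 718.7 CPM in tumor-bearing and 822.5 CPM in naive blood, a difference of 1.14-fold over all cells and of 1.40-fold at the cluster median. Ly6c2 stood at 1252 and 1366 CPM and Ccr2 at 917.4 and 1015 CPM. F13a1, coagulation factor XIII, was detected in 65.9% of thinned tumor-bearing and 76.1% of naive cells.

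MHC class II genes, which present antigen to CD4 T cells, differed between sums and detection. H2-Eb1 was 1.52-fold higher over all cells (1.44 to 1.62), at 420.2 CPM in tumor-bearing and 275.8 CPM in naive blood. It was nevertheless detected in about as many cells, 19.0% and 20.2% after thinning, and 5 cells held 35.8% of its UMIs in tumor-bearing blood and 21.9% in naive blood. The gap was widest in cluster 2, where H2-Eb1 was 5.63-fold higher and H2-Ab1 reached 1789 CPM in tumor-bearing and 428.6 CPM in naive cells, while H2-Ab1 in cluster 0 had 37.5 and 71.2 CPM. Cd74, the invariant chain, was 1.07-fold higher by its sum and yet detected in 60.9% of tumor-bearing and 72.9% of naive cells.

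Genes of energy metabolism differed by small ratios that leaned higher. Among 18 glycolysis and hypoxia genes none reached 1.5-fold, where 1.62% of all measured genes were higher and 0.755% lower. Of these 18, 5 were higher in all 5 clusters and 0 were lower in all 5. Gapdh had 875.4 CPM in tumor-bearing and 621.4 CPM in naive blood, 1.41-fold higher (1.35 to 1.47), and Slc2a1, the glucose transporter GLUT1, 29.8 and 23.4 CPM. Tpi1 was detected in 49.3% and 39.0% of thinned cells. Of 39 respiratory chain genes, 10 were higher in all 5 clusters and 0 lower, but only Atp5k, at 282.1 CPM in tumor-bearing and 167.8 CPM in naive blood, passed 1.5-fold. By the cluster rule 2 of the 18 and 3 of the 39 were higher, against 3.05% of all genes compared. None of either list was lower by it, against 2.20%. Over all 5273 genes compared, 460 were higher in all 5 clusters and 409 lower.

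Receptors that steer myeloid cells towards chemoattractants were higher in part. Ccr1, C5ar1, Fpr2 and Cxcr2, 4 of 10 measured, were at least 1.5-fold higher, against 1.62% of all measured genes, and none of them kept 1 direction in all 5 clusters. Ccr1, a receptor of CCL3 and CCL5, had 56.4 CPM in tumor-bearing and 28 CPM in naive blood, with ratios of 2.72 in cluster 0, 3.62 in cluster 1 and 0.905 in cluster 2. C5ar1, the complement C5a receptor, was at 50.8 and 30.1 CPM. Il1b, the pro-inflammatory cytokine IL-1 beta, was higher in all 5 clusters, at 215.5 and 129.8 CPM over all cells. Its list, of NF-kB feedback and inflammatory genes, did not move as a whole. Of 18 measured, 2 were at least 1.5-fold higher and 0 lower, against 1.62% and 0.755% of all measured genes. Their median log2 ratio was 8.1e-05. Within clusters 1 of 17 was higher by the rule and 1 lower, against 3.05% and 2.20% of all genes compared.

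Of 35 measured interferon-stimulated genes, 6 were at least 1.5-fold lower over all cells and 0 higher, where 0.755% of all measured genes were lower. The median log2 ratio of the 35 was −0.21 over all cells and −0.05 for 31 genes within clusters, where 1 gene, Phf11b, was lower by the rule, against 2.20% of all genes compared. Cluster 16, outside the matched clusters, had the smaller share of tumor-bearing blood given above. Rsad2, an antiviral enzyme known as viperin, was 1.60-fold lower over all cells (1.37 to 1.87) and kept 0.938 of the naive level at the cluster median. Without clusters 12 and 16 the all-cell log2 ratio of Rsad2 was −0.28, against −0.68 with them, and that of Phf11b was −0.45, against −0.59.

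Markers of cells other than monocytes were few. No platelet, red cell or carcinoma and stromal marker was measured, with summed levels of 6.19, 4.86 and 4.86 CPM in tumor-bearing blood and 9.0, 19.0 and 4.81 CPM in naive blood. Of 11 B cell markers 3 were measured, and Cd79b had 24.3 CPM in tumor-bearing and 36.5 CPM in naive blood. Of 14 mature neutrophil markers 10 were measured and 9 were at least 1.5-fold higher, against 1.62% of all measured genes, at a summed 4246 CPM in tumor-bearing and 1685 CPM in naive blood. Within the matched clusters 2 of 7 neutrophil markers, S100a8 and Mxd1, were higher by the rule, against 3.05% of all genes compared. Camp had 52 UMIs in tumor-bearing blood and 1 in naive blood, and Ly6g 4.42 CPM in tumor-bearing and 0.818 CPM in naive blood. Ccl5, a T and NK cell chemokine, was 3.95-fold higher by its sum, and 5 cells held 98.7% of its UMIs in tumor-bearing blood and 43.9% in naive blood. Without the top cell of each library its log2 ratio was −2.17, so 1 cell set its direction.

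**Figure D3:**
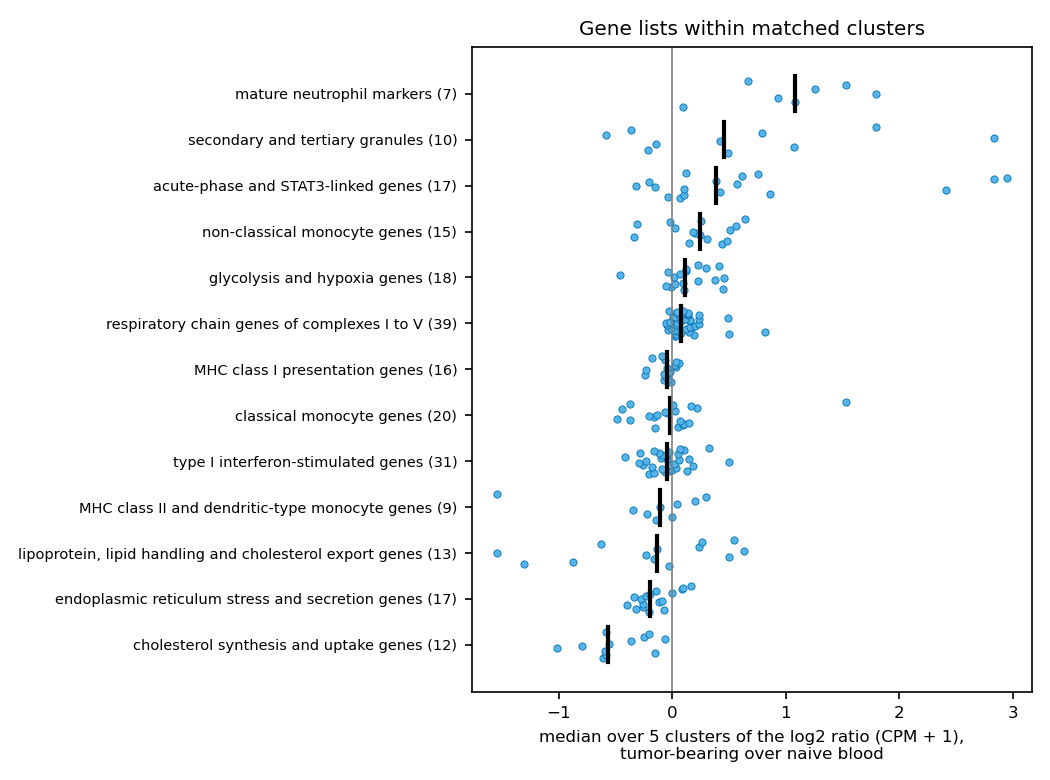
Each point is 1 gene, placed by the median over the 5 matched clusters of its log2 ratio (CPM + 1), tumor-bearing over naive blood. Black bars are list medians, with the number of genes compared in parentheses, and they run from 1.08 for neutrophil markers to −0.57 for cholesterol genes, against 0.01 for all genes compared.

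Surface tags gave a protein readout in the same cells. Antibody counts per cell had a median of 6045 in tumor-bearing and 2350.5 in naive blood, so each tag was read as its share of a cell's antibody counts, per 10000. In raw counts every one of the 47 tags was between 2.21-fold and 4.61-fold higher in tumor-bearing blood. As shares, 2 tags (4.26%) were at least 25% higher with 1 direction in all 5 clusters, and 0 (0.00%) were lower by this rule. The range was small for most tags: 39 of 47 varied by less than 25% between the highest and the lowest of the 5 clusters of naive blood, which limits what they can show.

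CD16.2, the activating Fc receptor FcγRIV of non-classical monocytes and neutrophils, was one of the 2. Its mean share was 147.6 ± 184.4 in tumor-bearing and 92.3 ± 108.5 in naive cells (SD over 354 and 814 cells, which is spread among cells and not among mice), 1.60-fold higher. Cluster ratios were 1.27, 1.5, 1.83, 1.70 and 1.78 in clusters 0, 1, 2, 4 and 6. Its gene Fcgr4, on chromosome 1 at 171018926 to 171029761, was 1.72-fold higher in RNA (1.48 to 2.0), at 68.1 CPM in tumor-bearing and 39.6 CPM in naive blood, with cluster 1 as the exception at 0.919. CD97, an adhesion receptor, was 1.253-fold higher by tag, at 286.3 and 228.5, while its gene Adgre5 had 622.1 CPM in tumor-bearing and 648.5 CPM in naive blood. The CD97 tag only just met the rule, with cluster ratios from 1.16 to 1.32, and varied by only 1.16-fold between clusters of naive blood. Its ratio, tumor-bearing over naive, was 0.956 in spleen and 1.05 in bone marrow. CD11b itself, at 2463 and 2007, was 1.23-fold higher and its gene Itgam 1.04-fold.

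Tags lower in tumor-bearing blood stayed short of the size rule. CD16-32, the low-affinity Fc receptors, had a share of 199.4 in tumor-bearing and 241.2 in naive cells, with all 5 clusters lower, and CD36, a scavenger receptor, had 327.0 and 388.3. CD115, the CSF1 receptor, was at 804.1 and 933.9 and Ly-6C at 2517 and 2811. Their genes Fcgr3, Csf1r and Ly6c2 had RNA ratios of 1.0, 0.994 and 0.917, tumor-bearing over naive.

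RNA differences were not always seen in the tag. Bst1 was 2.14-fold higher in RNA (1.80 to 2.54) with a ratio of 1.01 for its tag CD157, and Ly6a 2.23-fold higher (1.89 to 2.62) with 1.09 for Sca-1. The 5 cells with the most Ly6a UMIs held 52.4% of them in tumor-bearing blood and 35.0% in naive blood. Cx3cr1, lower in RNA at a ratio of 0.788, had 1.06 by its tag, and C5ar1, at 1.69 in RNA, had 0.978 by its tag CD88. Bst1, Ly6a, Cx3cr1 and C5ar1 were set beside their tags after their values were seen. The CD157 tag varied by only 1.06-fold, and the Sca-1 tag by 1.12-fold, between clusters of naive blood. The Cx3cr1 and CD88 tags varied by 1.10-fold and 1.12-fold there. The I-A-I-E tag, for MHC class II, had a ratio of 1.10 over all cells and 2.05 in cluster 2, the cluster in which H2-Ab1 and H2-Eb1 were higher. Its median in cluster 2 was 70.1 in tumor-bearing and 62.2 in naive cells, closer than the means of 159.1 and 77.7.

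**Figure D4:**
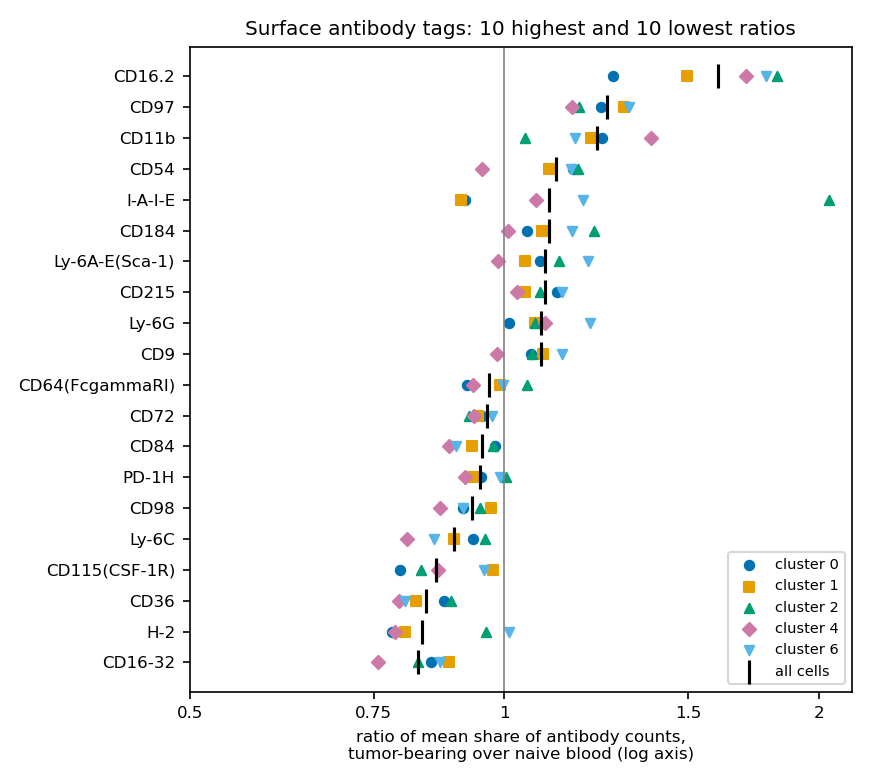
Ratio of the mean share of antibody counts, tumor-bearing over naive blood on a log axis, for the 10 highest and 10 lowest of 47 tags, in each matched cluster (coloured symbols) and in all cells (bar). CD16.2 and CD97 are more than 25% higher in all cells, and I-A-I-E exceeds 2 only in cluster 2.

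Spleen and bone marrow were sampled in both states as well, with 579 tumor-bearing and 416 naive spleen cells and 57 tumor-bearing and 153 naive marrow cells, 1 library each. Whether blood, spleen and marrow shared mice was not stated. Of the 86 genes higher in tumor-bearing blood, 72 were measured in spleen. There 41 (56.9%) were at least 1.5-fold higher too, where the share over all 5426 genes measured in spleen was 1.51%, and 0 were 1.5-fold lower. Of the 40 lower genes, 33 were measured in spleen and 10 (30.3%) were lower by 1.5-fold, against 0.663% of all genes. The same set in bone marrow gave 21 of 64 higher genes (32.8%, against 8.34% of 5505 genes) and 10 of 30 lower genes (33.3%, against 6.98%). In marrow 2 higher and 5 lower genes had the opposite direction at 1.5-fold.

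Fkbp5 was higher in all 3 tissues, by 2.74-fold in blood, 3.79-fold in spleen and 2.88-fold in marrow. Cfb was higher by 1.88-fold, 1.92-fold and 3.25-fold. Lpl was lower in all 3, with ratios of 0.247 in blood, 0.401 in spleen and 0.260 in marrow. Cyp51 was lower in blood and spleen, with ratios of 0.633 and 0.623, and stood at 1.07 in marrow. Socs3 was at 1.53 in spleen and 0.959 in marrow, and Junb, higher in blood, was at 0.852 and 0.901.

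**Figure D5:**
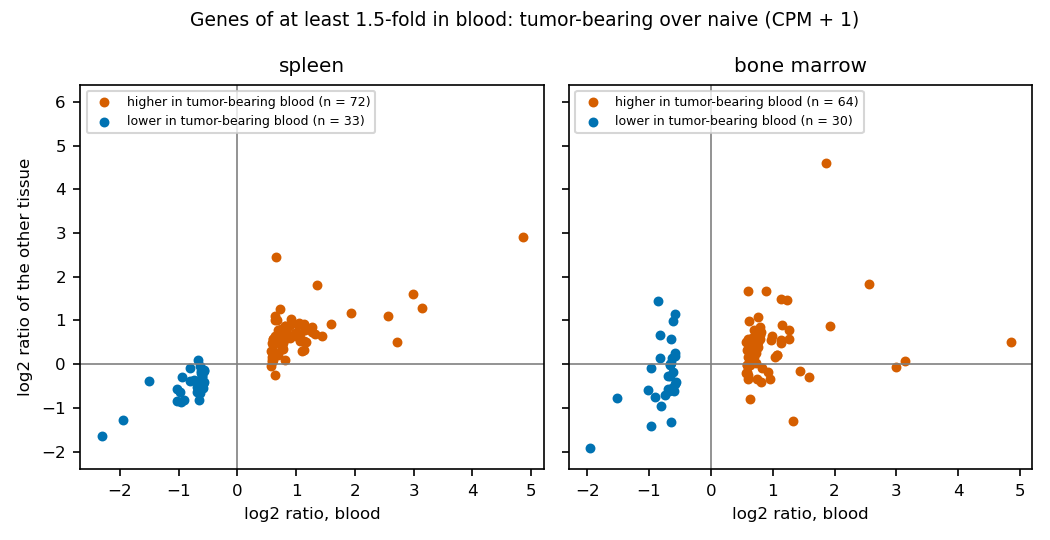
Log2 ratio (CPM + 1), tumor-bearing over naive, in spleen (left) and bone marrow (right) against blood, for genes at least 1.5-fold higher (orange) or lower (blue) in blood and measured in the other tissue. In spleen no gene crosses 1.5-fold in the opposite direction, and in marrow 7 do.

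Transcript length differed between the called sets. The median length was 1408 bases for the genes higher in all 5 clusters, 2526 bases for the lower genes and 1848 bases for all genes compared. Over 10 groups of genes ordered by length, the median log2 ratio in blood was 0.05 in the shortest group and −0.05 in the longest, and in spleen it was 0.04 in both. The next 2 groups by length had medians of 0.04 in blood. Single short transcripts lay far above these medians, among them Atp5k and the ribosomal-protein genes Rpl37 and Rps29, which were 1.62-fold and 1.53-fold higher in tumor-bearing blood and 1.71-fold and 1.49-fold higher in tumor-bearing spleen. Rpl37rt, a near-identical copy of Rpl37 whose reads the counting could split, was detected in 74.1% of thinned tumor-bearing and 53.7% of naive cells. These ribosomal genes were named after their values were seen, and the part of library preparation in them was not tested.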

How the data were processed

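RNA and 47 surface antibody tags were measured in single CD11b-enriched cells on the 10x Chromium platform. Per the submitters' processing notes, reads were processed with Cell Ranger against mm10. No Cell Ranger version was given. The authors deposited UMI counts of 25127 genes for 4290 cells, antibody counts, and metadata for 4527 cells with library names, clusters and the fraction of mitochondrial UMIs. Their normalized values were not used. No doublet caller was run here, and the cell filters of the authors were not stated.

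UMI counts were summed per library and per cluster and scaled to CPM. With 1 library a state no test was possible, so genes are given by rules of size. Ratios have exact conditional binomial intervals and shares have Clopper-Pearson intervals, both at 95% and for counting error only, since the spread among mice is unknown. Log2 ratios within clusters used a pseudo-count of 1 CPM. Cells were thinned at random to 5000 UMIs, which left out 11 tumor-bearing and 12 naive blood cells.

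Genes named were the 12 highest and 12 lowest by cluster median with 1 direction in all 5 clusters, outside the 8 highest and 8 lowest all-cell ratios. To these came the 6 largest detection differences a side, up to 3 members of a list by cluster median with the members past a rule of size, and antibodies past their rule. Unnamed gene models and genes of mitochondria, ribosomal proteins, immunoglobulins or haemoglobins, as well as sex-linked ones, stayed out of the cluster and detection rankings. Some items that these rules named are not reported here. Other genes were chosen after their values were seen. The comparison, the lists and the rules were chosen with earlier results of these data known. Alternatives covered scaling, filters, pseudo-count, single cells, cluster mix, thinning and antibody scale. Steps were tested on simulated data. Software was Python 3.11.15 with numpy 2.4.6, pandas 2.3.3 and scipy 1.17.1. R 4.3.3 was used with edgeR 4.0.16 for the TMM factors alone and DESeq2 1.42.0 for the median-of-ratios factors alone.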

Additional observations from a re-analysis of the deposited data

Results flagged for a closer look

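Genes past 1.5-fold in blood stood on the other side of 1.5-fold in bone marrow in 7 cases. Of the 64 higher blood genes measured in marrow, 2 were 1.5-fold lower there, against 6.98% of all genes measured in marrow. Of the 30 lower blood genes, 5 were 1.5-fold higher there, against 8.34%. These differences between tissues were not tested, each library has no replicate, and the marrow libraries held 57 tumor-bearing and 153 naive cells. The ratio of Aacs, tumor-bearing over naive, was 1.63 in marrow and 0.545 in blood, from 15 and 23 marrow UMIs. Hmgcs1 had 1.51 in marrow and 0.633 in blood, from 20 and 33 marrow UMIs. Among interferon-stimulated genes, Ifit1bl1 had 2.82 in marrow and 0.536 in blood, Isg20 had 2.25 and 0.665, and Phf11d had 2.01 and 0.648. Lilr4b, a leukocyte receptor, had 0.569 in marrow and 1.58 in blood, and Retnlg, a neutrophil resistin-like gene, had 0.405 and 2.52. Marrow UMIs, tumor-bearing and naive, were 26 and 23 for Ifit1bl1, 47 and 52 for Isg20 and 37 and 46 for Phf11d. They were 13 and 57 for Lilr4b and 139 and 856 for Retnlg.

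Cells listed in the metadata without counts were used in no comparison. Cluster 14 held 18 of the 373 listed cells of tumor-bearing blood, 4.83% (2.88 to 7.52), and 13 of the 837 of naive blood, 1.55% (0.830 to 2.64). Their median listed UMIs were 3069 and 2682.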

How the results depend on the processing

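The 86 higher and 40 lower genes of all cells became 1700 and 1735 with no filter on low counts and 159 and 88 with cells thinned to 5000 UMIs, and 25 were lower with a pseudo-count of 5 CPM. All other settings gave 64 to 98 higher and 34 to 50 lower genes. Genes at least 10 points higher in detection, 51 in all, numbered 31 at 3000 UMIs, 16 of them among the 51, and 108 without thinning, 29 of them among the 51. Genes at least 10 points lower, 22 in all, numbered 11 at 3000 UMIs, 32 at 8000 UMIs and 20 without thinning, with 7, 8 and 7 of them among the 22, so most of this set changed with depth. In matched clusters, leaving out the top cell of each gene gave 96 higher genes in place of 161 and 249 lower genes in place of 116, a step that takes 1 of fewer cells from each tumor-bearing cluster. Leaving out each cluster in turn gave 199 to 233 higher and 154 to 199 lower genes, with 185 without cluster 2 and 199 without cluster 4. As raw counts 47 tags were higher, and by centred log ratio 1 was, in place of 2. Tags recomputed one by one were CD16.2, CD97, CD11b, CD16-32, H-2 and CD36 alone. Of these, 3 reversed on raw counts, with log2 ratios of 1.14 for CD16-32, 1.20 for H-2 and 1.16 for CD36. With all 47 tags higher in raw counts, every tag with a lower share changed direction. Among them were Ly-6C and CD115, at raw ratios of 2.38 and 2.30, tumor-bearing over naive. Ccl5 reversed to −2.17 on the log2 scale without its top cell. Over 77 named genes, 936 of 1001 recomputed log2 ratios moved little, 64 moved and 1 reversed, and none of 48 detection differences reversed. The 48 belong to the genes picked for the largest detection differences in these same cells, so they could hardly reverse. The 936 include values that could hardly move. Filter settings repeat the main ratio of a gene by construction. Scaling settings shift every gene alike, by no more than −0.029 on the log2 scale, and all 77 genes stayed the same under each. Apart from the points with a stated construction, the cause was not tested. No paired analysis was possible because each state had 1 library and no value came from a test.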
